A study of Mus musculus with 6 samples.

Results

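Chondrocytes labelled aging SNL plus spesolimab were compared with control chondrocytes, using 4 of the 6 RNA-seq libraries of a mouse series, 2 on each side, and the members of the comparison were all genes with values. All cells were labelled wild-type primary articular chondrocytes, the cells that build and maintain the cartilage of joints. The control libraries came from cells labelled control CCs, and the other libraries from CCs under the condition aging SNL with spesolimab added. The labels did not expand SNL or CCs, gave no dose, time or age, and did not state if a replicate was another animal, another culture or another preparation. A p-value here therefore measures the spread of these 4 libraries alone, and that spread may be technical. Per its title, the series asks how aged skin bears on experimental osteoarthritis through the IL-36 receptor. The groups compared differ in both the aging SNL condition and the antibody, and the parts of these in a difference cannot be told apart. Values were present for 17189 of the 22173 genes in the deposited table, and 13283 of these passed the filter on low counts and were tested.

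IL-36 cytokines belong to the IL-1 family and are made mainly by keratinocytes and other barrier cells. They bind the receptor chain IL1RL2, which pairs with the shared chain IL1RAP and signals through MYD88 and IRAK kinases to NF-kB and MAP kinases, with chemokines, IL-6 and acute-phase proteins among the usual targets. Spesolimab is a humanised antibody made against the IL-36 receptor. In a joint, chondrocytes that receive IL-1 family signals are known to secrete cytokines and proteases that degrade aggrecan and type II collagen.

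The 4 libraries held between 17064957 and 17312833 counts. The cell type label was checked against 12 chondrocyte markers, all of which were detected in every library, and Col2a1, the type II collagen of cartilage, took between 4.37% and 4.79% of all counts of a library. Summed over the 12 markers, levels were 71005 and 69007 CPM (depth-scaled counts) in control replicates 1 and 2 and 72378 and 84891 CPM in spesolimab replicates 1 and 2. Macrophage markers were low and higher in replicate 1 than in replicate 2 of both groups, with sums over 17 genes of 186 and 84.7 CPM in the controls and 261 and 101 CPM with spesolimab. Adipocyte and muscle markers stood above these, at 361 and 187 CPM in the controls and 488 and 245 CPM with spesolimab. Osteoblast and osteoclast markers summed to 432 and 318 CPM in the controls and 513 and 246 CPM with spesolimab. In both lists 0 tested members were called. Keratinocyte markers summed to between 5.53 and 7.46 CPM and markers of neutrophils, lymphocytes and erythroid cells to between 0.589 and 2.02 CPM. On a principal component analysis of the 4 libraries, the leading axis held 55.4% of the variance and separated the groups.

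In edgeR's quasi-likelihood test of the 4 libraries, 200 genes were higher and 182 lower with spesolimab than in control at a Benjamini-Hochberg adjusted p under 0.05, which is 1.51% and 1.37% of the genes tested. The median log2 fold change was 0.91 among the genes called higher and -1.08 among those called lower, against 0.0003 over all genes tested. Of the called genes, 89 rose and 98 fell more than 2-fold, and 24 rose and 2 fell more than 4-fold. Both spesolimab libraries lay above both controls for 23.8% of tested genes and below both for 24.6%, called or not, so that a lack of overlap alone is common in these data. The counts of list members below are to be read beside these shares and the shares called.

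The counts of called genes moved with single libraries. Without control replicate 1, 61 genes were higher and 72 lower, or 0.451% and 0.532% of those tested. Without control replicate 2 the counts dropped to 22 and 13 genes, or 0.163% and 0.0963%. Leaving out spesolimab replicate 1 gave 349 and 196 genes, or 2.59% and 1.45%, and leaving out spesolimab replicate 2 gave 125 and 62, or 0.924% and 0.458%. The lone library of a group was assumed there to vary like the libraries of the other group. Where list counts below are given for these smaller fits, they move with these shares of all genes and are to be read beside them. Of the genes called with 4 libraries, 20 higher and 10 lower were called in all 4 of these smaller fits, among them Serpina3m, Serpina3n, Zbtb16, Fkbp5, Pdk4, Slc39a8, Mki67, Pclaf, Kif20a, Anln and Tagln.

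**Figure D1:**
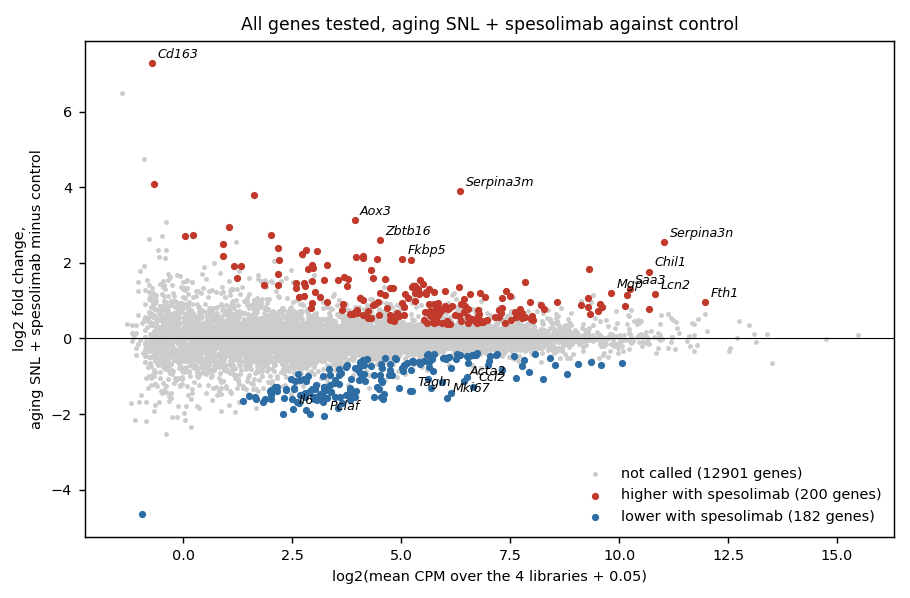
Each point is 1 gene tested, with its mean level over the 4 libraries on the horizontal axis, as log2(CPM + 0.05), and its log2 fold change, aging SNL plus spesolimab minus control, on the vertical axis. Red points mark the 200 genes called higher and blue points the 182 called lower; of the called genes, 24 rose and 2 fell more than 4-fold.

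The largest rise by the rule for naming genes was that of Serpina3m, a serine protease inhibitor of the mouse alpha-1-antichymotrypsin cluster. It stood at 11.2 and 9.55 CPM in the controls and at 156 and 152 CPM with spesolimab, a log2 fold change of 3.89 ± 0.0974 (SE) with an adjusted p of 5.35e-05 in edgeR. Serpina3n of the same cluster was far more abundant, at 624 and 596 CPM in the controls and 3226 and 3932 CPM with spesolimab (log2 fold change 2.55 ± 0.135, adjusted p = 0.00235). Near-identical family members can share reads: of the 50-base words of the Serpina3m transcripts in GENCODE M21, 1.12% also stand in those of Serpina3n. Serpina3c rose too, from 4.32 and 7.12 CPM to 16.61 and 34.2 CPM (adjusted p = 0.0398). The other 3 tested members of the cluster were not called, with log2 fold changes of -0.02 for Serpina3g, -0.43 for Serpina3f and 0.41 for Serpina3i.

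Aox3, an aldehyde oxidase, went from 3.69 and 2.54 CPM to 25.7 and 29.0 CPM (log2 fold change 3.13 ± 0.176, adjusted p = 0.00235). Adora1, the adenosine A1 receptor, went from 2.59 and 3.00 CPM to 12.5 and 15.5 CPM (adjusted p = 0.006). Rnf180, a ubiquitin ligase, stood at 2.3 and 2.32 CPM in the controls and at 12.8 and 10.7 CPM with spesolimab (adjusted p = 0.0057). Ppl, which encodes the junction protein periplakin, rose with a log2 fold change of 2.10 ± 0.196 and Gna14, a G protein alpha subunit, with 1.94 ± 0.189.

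Pclaf, whose protein binds PCNA at replication forks, had the largest fall among called genes with a mean of at least 5 CPM, from 14.3 and 15.8 CPM to 3.59 and 3.68 CPM (log2 fold change -2.05 ± 0.145, adjusted p = 0.00429). The kinesins Kif4, Kif2c and Kif20a, the kinetochore genes Bub1 and Knl1, the spindle genes Aspm and Hmmr, the kinase Pbk, the thymidine kinase Tk1, Iqgap3, Shcbp1 and Uhrf1 were also among the 15 largest falls, with log2 fold changes between -1.99 and -1.58. The other two were Il6 and Ch25h. Ch25h, which makes 25-hydroxycholesterol, stood at 9.10 and 9.27 CPM in the controls and at 3.77 and 1.90 CPM with spesolimab (adjusted p = 0.0368).

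**Figure D2:**
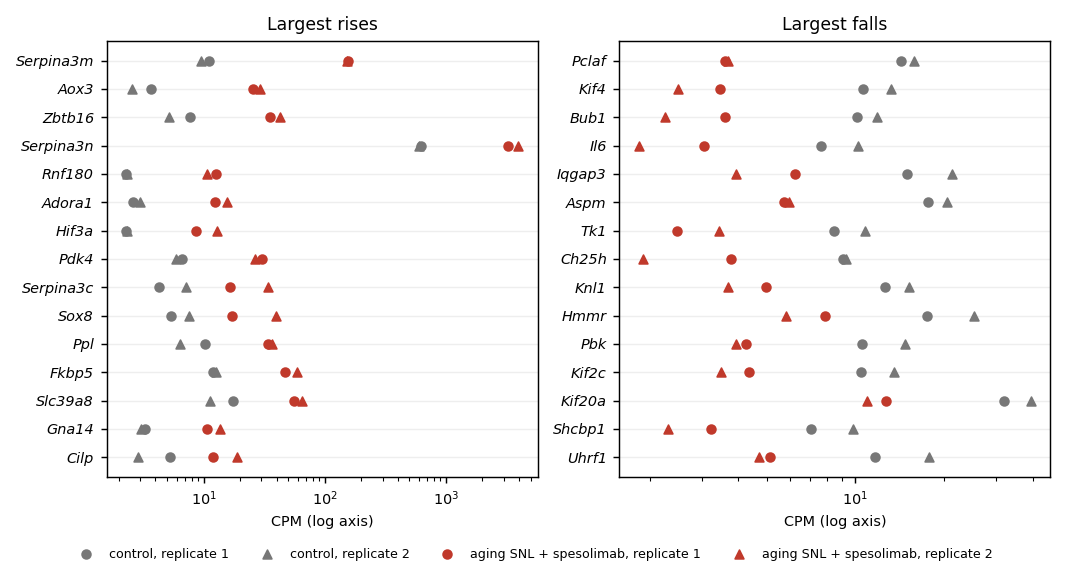
CPM per library, on a log axis, of the 15 genes with the largest rise (left) and the 15 with the largest fall (right); circles are replicate 1, triangles replicate 2, grey control and red aging SNL plus spesolimab. In all 30 genes the groups do not overlap, which the rule for naming required; Serpina3n is the most abundant, at 596 to 624 CPM in the controls and 3226 to 3932 CPM with spesolimab.

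Per transcript length, the changes reached some of the most abundant mRNAs of these cells. Fth1, the ferritin heavy chain, ranked at 2 among all tested genes by mean TPM (a level scaled to transcript length), with 8185 and 8667 TPM in the controls and 16108 and 14657 TPM with spesolimab. Saa3, a serum amyloid A made outside the liver, ranked at 4, with 6303 and 4175 TPM in the controls and 12502 and 12214 TPM with spesolimab. Lcn2, the iron-siderophore binding protein lipocalin 2, stood at 4309 and 3579 TPM in the controls and 7635 and 9134 TPM with spesolimab, and Mgp, an inhibitor of mineralization, at 3000 and 3266 TPM and at 6481 and 7169 TPM. By mean TPM, Lcn2 ranked at 8 and Mgp at 12. These 4 abundant genes were chosen among the genes called, and all 4 were higher with spesolimab.

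The genes of the IL-36 receptor, against which spesolimab was made, were expressed at a low level in both groups. Whether the antibody bound the mouse receptor on these cells was not tested. Il1rl2, the ligand-binding chain, stood at 16.4 and 11.3 CPM in the controls and at 19.3 and 14.7 CPM with spesolimab, and the groups overlapped (log2 fold change 0.30 ± 0.209, adjusted p = 0.544 in edgeR). Il1rap, the shared signalling chain, stood at 33.0 and 31.2 CPM and at 35.7 and 27.6 CPM (adjusted p = 0.966). Its fold change was -0.02, and its sign turned when control replicate 1 or spesolimab replicate 2 was left out. Of the ligands, the IL-36 gamma gene, listed as Il1f9, had 2 and 2 counts in control and 2 and 3 with spesolimab, and the genes of IL-36 alpha, IL-36 beta and the receptor antagonist, listed as Il1f6, Il1f8 and Il1f5, had empty cells. In the wider family of IL-1 receptors and ligands, 10 of 20 listed genes could be tested and 0 were called by edgeR, with a median log2 fold change of 0.30. No member had an unadjusted p under 0.05, and DESeq2 and limma on TPM called 0 as well. Il1rn, the IL-1 receptor antagonist, was the most variable of the abundant members, at 317 and 153 CPM in the controls and 489 and 264 CPM with spesolimab.

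Downstream of the receptor, 1 of 23 tested adaptors and kinases was called higher and 0 lower, with a median log2 fold change of -0.00. The called gene was Peli2, a ubiquitin ligase of the IRAK complex, at 38.7 and 38.5 CPM in the controls and 50.6 and 57.0 CPM with spesolimab (adjusted p = 0.0391). Of 22 NF-kB subunits, feedback genes and targets, 0 were called, and the median log2 fold change was -0.23. At an unadjusted p under 0.05, 7 were lower and 0 higher in edgeR, DESeq2 called 0 and limma on TPM called 1 lower. For 12 of the 22 both spesolimab libraries lay below both controls and for 0 above, against 24.6% and 23.8% of all tested genes. Nfkbia, the inhibitor IkB-alpha that NF-kB itself induces, came closest to the threshold, at 30.9 and 32.8 CPM in the controls and 24.0 and 21.5 CPM with spesolimab (log2 fold change -0.48 ± 0.0944, adjusted p = 0.0541). Zc3h12a, a ribonuclease that degrades inflammatory mRNAs, had an adjusted p of 0.116, and Cd44, the hyaluronan receptor, 0.0849. Of the subunits themselves, Rela stood at 50.8 and 50.4 CPM in the controls and at 50.1 and 54.8 CPM with spesolimab.

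Among chemokines and inflammatory cytokines, 4 of 17 tested genes were lower with spesolimab than in control and 0 were higher, with a median log2 fold change of -0.53. Il6 stood at 7.66 and 10.2 CPM in the controls and at 3.06 and 1.84 CPM with spesolimab (log2 fold change -1.86 ± 0.281, adjusted p = 0.0268 in edgeR). Ccl2, which attracts monocytes, fell from 156 and 127 CPM to 68.3 and 48.5 CPM (log2 fold change -1.27 ± 0.173, adjusted p = 0.0208). Cxcl1, which attracts neutrophils, fell from 53.9 and 77.5 CPM to 29.5 and 33.6 CPM (adjusted p = 0.0327). The groups did not overlap for these genes, nor for any of the 382 genes called. Csf1, the macrophage growth factor, was more abundant and fell less, from 693 and 623 CPM to 436 and 384 CPM (adjusted p = 0.0293). The abundant Cxcl5 and Cxcl12 were not called, at 1390 and 1035 CPM against 1124 and 792 CPM and at 2707 and 1435 CPM against 2528 and 979 CPM. The count of 4 rests on the libraries in the fit: it was 1 without control replicate 1, 0 without control replicate 2, 4 without spesolimab replicate 1 and 1 without spesolimab replicate 2.

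Of 16 tested acute-phase genes 7 rose, 0 fell, and the median log2 fold change was 1.11. For 13 of them both spesolimab libraries lay above both controls, against 23.8% of all tested genes. Besides the 3 serpins, Saa3 rose from 852 and 549 CPM to 1743 and 1724 CPM (log2 fold change 1.31 ± 0.20, adjusted p = 0.0286) and Lcn2 from 1237 and 1003 CPM to 2300 and 2743 CPM (1.17 ± 0.147, adjusted p = 0.017). Orm1, an alpha-1-acid glycoprotein, and Saa1 rose from low levels, Orm1 from 0.519 and 0.396 CPM to 3.59 and 3.56 CPM. The count of 7 became 6 without control replicate 1, 2 without control replicate 2, 7 without spesolimab replicate 1 and 4 without spesolimab replicate 2.

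Against 1.51% and 1.37% of all tested genes called higher and lower, 2 of 19 tested complement genes rose and 0 fell. They were C4b, at 894 and 715 CPM in the controls and 1511 and 1399 CPM with spesolimab (adjusted p = 0.0288), and Cd55, the decay-accelerating factor that protects cells from complement, at 27.3 and 21.1 CPM and at 48.1 and 71.5 CPM (adjusted p = 0.0304). C3, the central component, stood at 455 and 297 CPM in the controls and at 799 and 687 CPM with spesolimab without passing the test (adjusted p = 0.0584). The 2 rises became 1 without control replicate 1, 0 without control replicate 2, 2 without spesolimab replicate 1 and 1 without spesolimab replicate 2. Complement genes are also made by macrophages, and 1 of 17 tested macrophage markers was called, the scavenger receptor Cd163. It had 0 counts in both controls and 24 and 14 with spesolimab. With 3 counts over the control pair as the limit, it was at least 13.1-fold higher. Without spesolimab replicate 1 it was not tested, and it was called in none of the other fits that left out 1 library. The other 16 macrophage markers did not pass, among them Lyz2 with 71.2 and 13.7 CPM in the controls and 98.3 and 19.9 CPM with spesolimab, and their part in the result was not tested.

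Among 16 tested protease inhibitors 4 rose, Serpina3n among them, and 1 fell, with a median log2 fold change of 0.05. A2m, alpha-2-macroglobulin, which traps many proteases, rose from 101 and 98.2 CPM to 243 and 232 CPM (log2 fold change 1.25 ± 0.0759, adjusted p = 0.00235). Cst3, the cathepsin inhibitor cystatin C, rose from 449 and 354 CPM to 847 and 844 CPM (adjusted p = 0.0156). Timp4, an inhibitor of metalloproteinases, rose from 2.42 and 1.75 CPM to 7.54 and 5.99 CPM (adjusted p = 0.0258). In the replicates of each of these genes the spread was smaller than the gap between the groups. The 4 rises became 3 without control replicate 1, 2 without control replicate 2, 4 without spesolimab replicate 1 and 5 without spesolimab replicate 2.

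Of 19 tested genes known to respond to glucocorticoids 13 rose and 1 fell, with a median log2 fold change of 1.04. For 17 both spesolimab libraries lay above both controls, against 23.8% of all tested genes. Fkbp5, a co-chaperone that restrains the glucocorticoid receptor, stood at 12 and 12.6 CPM in the controls and at 46.8 and 58.5 CPM with spesolimab (log2 fold change 2.10 ± 0.129, adjusted p = 0.00235 in edgeR). Zbtb16, a zinc finger transcription factor, rose from 7.78 and 5.20 CPM to 35.6 and 42.8 CPM (2.59 ± 0.189, adjusted p = 0.00434), and Pdk4, which restrains glucose oxidation, from 6.68 and 5.94 CPM to 30.4 and 26.6 CPM (2.17 ± 0.127, adjusted p = 0.00235).

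Tsc22d3, which encodes the glucocorticoid-induced leucine zipper protein GILZ, rose from 25.9 and 27.5 CPM to 49.3 and 57.2 CPM (adjusted p = 0.0107), and Klf9 from 61.2 and 52.7 CPM to 125 and 110 CPM. Sgk1, a kinase that acts on ion transport, rose less, from 216 and 193 CPM to 322 and 294 CPM (log2 fold change 0.59 ± 0.0946). The 1 gene that fell was Nr3c1, the glucocorticoid receptor itself, at 168 and 164 CPM in the controls and 129 and 117 CPM with spesolimab (log2 fold change -0.43 ± 0.0811, adjusted p = 0.047). Hsd11b1, which regenerates active glucocorticoid inside cells, was low and not called, at 2.94 and 3.73 CPM in the controls and 3.95 and 4.39 CPM with spesolimab. The 13 rises became 5 without control replicate 1, 3 without control replicate 2, 14 without spesolimab replicate 1 and 12 without spesolimab replicate 2. Zbtb16, Lcn2, Mt1, Mt2, Gpx3, Per1, Errfi1 and Dusp1 also stand in other lists here, so the counts of those lists overlap.

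Promoters of 15 of the 19 tested members were found in the RefSeq promoter table of build GRCm38.p6, by symbol. In the 250 bases before the start, on both strands, the glucocorticoid response element matched 1 of the 15, Sgk1, and 12 of 27025 genes with a promoter in the table (0.0444%). The Sgk1 sequence is shown because it carries that match, in capitals, 189 bases before the start (chr10:21993640-21993889, plus strand).
Sgk1: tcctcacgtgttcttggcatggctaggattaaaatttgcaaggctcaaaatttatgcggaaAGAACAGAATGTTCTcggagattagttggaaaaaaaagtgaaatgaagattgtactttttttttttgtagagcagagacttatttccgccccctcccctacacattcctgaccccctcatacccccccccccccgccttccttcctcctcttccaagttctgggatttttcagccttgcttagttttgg
A match is a description of the letters and not of a bound receptor, and the absence of these letters from the other windows says nothing of sites elsewhere.

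Lists of metal, redox and clock genes share members with that list. Of 12 tested zinc transporters and metallothioneins 3 rose: Slc39a8, the zinc and manganese importer ZIP8, from 17.5 and 11.4 CPM to 55.6 and 65.0 CPM (adjusted p = 0.0087), and the metallothioneins Mt1 and Mt2, Mt1 from 40.7 and 49.2 CPM to 140 and 90.7 CPM (adjusted p = 0.0268). Of 23 genes of oxidative stress 3 rose, Gclc, which sets the rate of glutathione synthesis, Fth1, and the secreted peroxidase Gpx3. Gclc stood at 27.9 and 29.9 CPM in the controls and at 58.8 and 71.7 CPM with spesolimab (adjusted p = 0.00994). The median of that list was -0.08. Of 19 clock genes Per1 and Nr1d1 rose and Per3 fell, with Per1 at 32.5 and 32.0 CPM in the controls and 65.6 and 84.6 CPM with spesolimab (adjusted p = 0.0109). Without control replicate 1 there were 1, 1 and 0 rises in the metal, redox and clock lists, and without control replicate 2 there were 1, 0 and 0. Without spesolimab replicate 1 there were 3, 4 and 3, and without spesolimab replicate 2 there were 3, 3 and 2. The fall of Per3 was called in the fit without spesolimab replicate 1 and in none of the other 3.

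**Figure D3:**
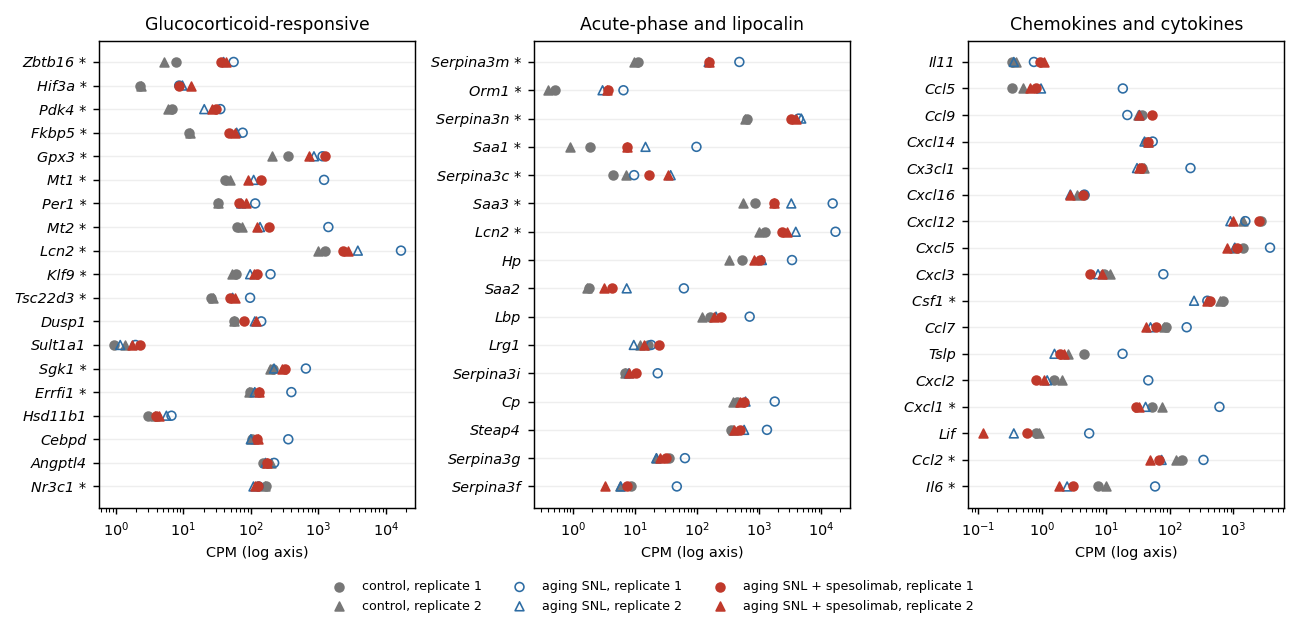
CPM per library, on a log axis, for the tested members of 3 lists (glucocorticoid-responsive genes, acute-phase genes, and chemokines and cytokines), sorted by fold change, with an asterisk at genes called between spesolimab and control. Filled grey and red symbols are control and aging SNL plus spesolimab, open blue symbols the aging SNL libraries without antibody, circles replicate 1 and triangles replicate 2; aging SNL replicate 1 lies to the right in many rows, as for Lcn2 at 16822 CPM.

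The cartilage matrix changed at a few genes. Of 27 tested members 4 rose and 0 fell, with a median log2 fold change of 0.47. For 18 both spesolimab libraries lay above both controls, against 23.8% of all tested genes. Prg4, the joint lubricant lubricin, rose from 163 and 145 CPM to 263 and 230 CPM (log2 fold change 0.68 ± 0.102, adjusted p = 0.0265). Ucma, a Gla protein of unmineralized cartilage, rose from 597 and 454 CPM to 994 and 976 CPM (0.91 ± 0.140, adjusted p = 0.0288), and Cilp, of the cartilage intermediate layer, from 5.24 and 2.88 CPM to 12.1 and 19 CPM. Epyc, the small proteoglycan epiphycan, was the other rise. The count was 1 without control replicate 1, 0 without control replicate 2, 10 without spesolimab replicate 1 and 3 without spesolimab replicate 2.

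The main structural genes were not called. Col2a1 stood at 45667 and 42131 CPM in the controls and at 44839 and 49132 CPM with spesolimab (adjusted p = 0.824). Acan, the core protein of aggrecan, was higher in replicate 2 than in replicate 1 of both groups, at 2519 and 3776 CPM in the controls and 3337 and 6546 CPM with spesolimab (log2 fold change 0.65 ± 0.329, adjusted p = 0.391). Sox9, the master regulator of the chondrocyte fate, stood at 151 and 157 CPM and at 166 and 201 CPM (adjusted p = 0.305). Of 13 tested markers of synovial fibroblasts and the superficial zone, Prg4, Cd55 and Tspan15 rose and 0 fell, with sums over 14 genes of 1164 and 1035 CPM in the controls and 1603 and 1385 CPM with spesolimab. Their part in the matrix result was not tested. In bulk RNA, fewer cells of a type and less RNA per cell cannot be told apart.

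Few of the proteases that cut this matrix passed the test. Of 21 metalloproteinases and ADAMTS enzymes tested, 1 rose and 1 fell. Mmp3, stromelysin 1, rose from 861 and 584 CPM to 1774 and 1439 CPM (log2 fold change 1.15 ± 0.20, adjusted p = 0.0373), and Adamts9 fell from 119 and 123 CPM to 70.3 and 49.97 CPM (-1.01 ± 0.15, adjusted p = 0.0263). Mmp13, the collagenase most tied to osteoarthritis, stood at 2131 and 2551 CPM in the controls and at 2768 and 2885 CPM with spesolimab without passing the test (log2 fold change 0.27 ± 0.126, adjusted p = 0.345). The aggrecanases Adamts4 and Adamts5 had log2 fold changes of 0.01 and -0.01. The list held 1 rise and 0 falls without control replicate 1, 0 and 0 without control replicate 2, and 2 and 1 when either spesolimab library was left out.

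In the list of hypertrophy and mineralization 2 of 16 tested genes rose, both inhibitors of mineral deposition. Mgp, matrix Gla protein, rose from 527 and 559 CPM to 1183 and 1317 CPM (log2 fold change 1.20 ± 0.102, adjusted p = 0.00687). Enpp1, which makes the mineral inhibitor pyrophosphate, rose from 120 and 108 CPM to 168 and 172 CPM (adjusted p = 0.0248), and Ank, which exports pyrophosphate, had an adjusted p of 0.0583. Col10a1, the collagen of hypertrophic cartilage, stood at 19.4 and 23.5 CPM in the controls and at 12.7 and 19.5 CPM with spesolimab (adjusted p = 0.381). Of 24 fibrous matrix genes Eln, elastin, rose from 13.8 and 14.9 CPM to 26.4 and 26.4 CPM (adjusted p = 0.0118) and Tnc, tenascin C, fell from 435 and 396 CPM to 227 and 167 CPM (adjusted p = 0.0235). Without control replicate 1 the hypertrophy list held 1 rise and the fibrous list 0 calls, and without control replicate 2 both held 0. Without spesolimab replicate 1 there were 3 rises and 2 falls in each list, and without spesolimab replicate 2 there were 1 and 1.

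Among 23 tested transcription factors of chondrocytes 4 rose and 1 fell. Besides Zbtb16 these were Sox8, a relative of Sox9, Foxo3, a factor of stress resistance and autophagy, and Gli2, the effector of Hedgehog signals, while Sox4 fell. Sox8 differed most between replicates, at 5.42 and 7.58 CPM in the controls and 17.2 and 39.8 CPM with spesolimab (adjusted p = 0.0481). Foxo3 replicated closely, at 86.7 and 85.4 CPM and at 132 and 135 CPM (log2 fold change 0.64 ± 0.0687, adjusted p = 0.0117). Sox4 fell from 158 and 156 CPM to 106 and 100 CPM (adjusted p = 0.0163). The 4 rises became 1 without control replicate 1, 1 without control replicate 2, 4 without spesolimab replicate 1 and 3 without spesolimab replicate 2, and the fall was not called when either control library was left out.

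Of 25 tested genes of mitosis and the spindle 23 fell and 0 rose, and the median log2 fold change was -1.48. For all 25 both spesolimab libraries lay below both controls, against 24.6% of all tested genes. Mki67, the proliferation antigen Ki-67, fell from 84.9 and 115 CPM to 33.2 and 34.0 CPM (log2 fold change -1.57 ± 0.144, adjusted p = 0.0087 in edgeR). Kif20a, a kinesin of cytokinesis, fell from 32.1 and 39.5 CPM to 12.7 and 10.9 CPM (adjusted p = 0.00687), and Anln, the cytokinesis scaffold anillin, from 46.1 and 61.1 CPM to 20.3 and 20.5 CPM (adjusted p = 0.0108). Birc5 and Aurka were the members that did not pass. The 23 became 22 without control replicate 1, 6 without control replicate 2, 22 without spesolimab replicate 1 and 14 without spesolimab replicate 2.

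Of 27 tested genes of DNA replication 7 fell and 0 rose, and the median log2 fold change was -0.69. For 23 the groups did not overlap, with spesolimab below, against 24.6% of all tested genes. Besides Pclaf, Uhrf1, which maintains DNA methylation at replication forks, fell from 11.6 and 17.8 CPM to 5.12 and 4.69 CPM (adjusted p = 0.0248), and Mcm3, a subunit of the replicative helicase, from 21.4 and 25.0 CPM to 13.7 and 10.6 CPM (adjusted p = 0.0324). The 7 became 6 without control replicate 1, 1 without control replicate 2, 7 without spesolimab replicate 1 and 1 without spesolimab replicate 2. Both lists together held 30 of the 182 genes called lower, and 152 lay outside them. Among the cell cycle inhibitors and senescence genes, 22 tested, Lmnb1 was the 1 gene called, at 15.3 and 14.9 CPM in the controls and 7.07 and 6.29 CPM with spesolimab (adjusted p = 0.0118). Lmnb1 encodes lamin B1, whose loss is a known mark of senescent cells. The median log2 fold change of that list was -0.04, with 9 members above 0 and 13 below. Its next genes by p-value were Igfbp7, with a log2 fold change of 0.55, and the CDK inhibitor Cdkn2b, with -0.38, and neither was called. Whether the cells were senescent was not tested.

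**Figure D4:**
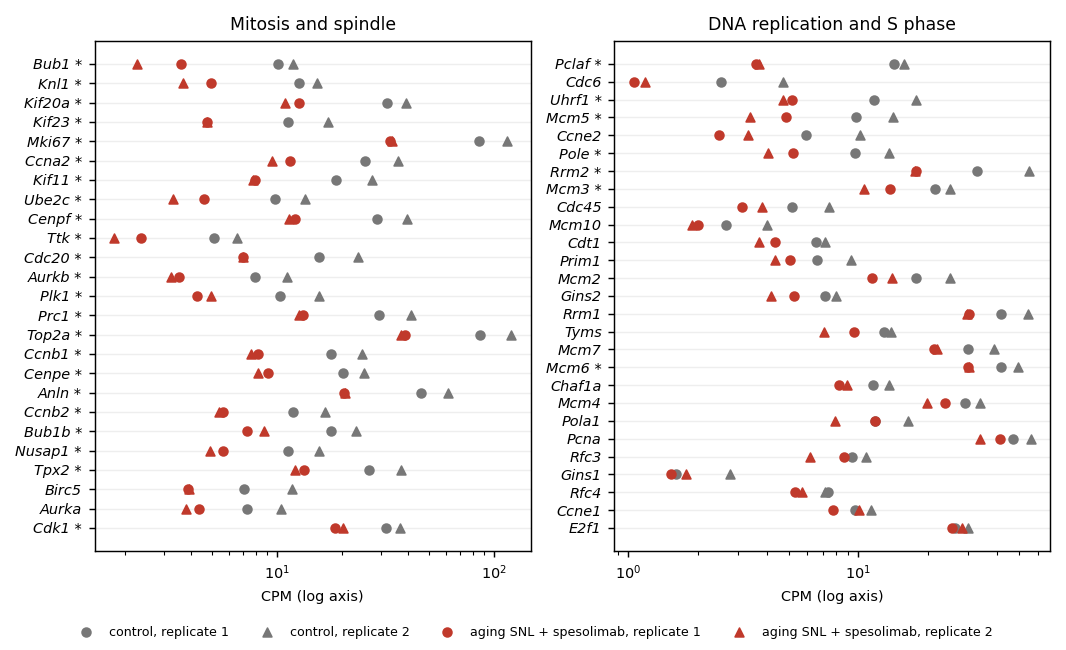
CPM per library, on a log axis, for the 25 tested genes of mitosis and the spindle (left) and the 27 of DNA replication (right), sorted by fold change, with an asterisk at genes called; circles are replicate 1, triangles replicate 2, grey control and red aging SNL plus spesolimab. In the left panel the red symbols lie left of the grey ones in every row, and control replicate 2 lies right of control replicate 1, as for Mki67 at 115 and 84.9 CPM.

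The promoters of these genes were searched for short elements known from promoters of cell cycle genes. The lists were made of well-known cell cycle genes, so a share above that of all genes describes the lists and not the change. Called members were not set against the others, and the 27025 genes are all those with a promoter, tested or not. Promoters of 21 of the 25 mitosis genes were in the RefSeq table. CCAAT, the letters that the factor NF-Y binds, was found on either strand of the 250 bases before the start in 17 of the 21 (81%) and in 37.5% of all 27025 genes. In the replication list it was found in 16 of 22 (72.7%). TTTGAA, the core of the cell cycle homology region bound by repressors of late cell cycle genes, was found in 8 of 21 (38.1%) against 18.3%, and in each of the 8 together with CCAAT, a pair present in 7.34% of all genes. In the replication list, TTTCCCGC, TTTGGCGC or TTTCGCGC, forms of the E2F site, stood in 7 of 22 promoters (31.8%) against 1.78%. These patterns do not overlap each other in the sequences shown, except that the 2 matches of Mcm5 share 4 bases.

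The sequences of the 3 called mitosis genes with the lowest adjusted p that hold both CCAAT and TTTGAA are shown, with both patterns and their reverse complements in capitals, in build GRCm38.p6. They are Mki67 (chr7:135716380-135716629, minus strand), Top2a, a topoisomerase that untangles sister chromatids (chr11:99024190-99024439, minus strand), and Prc1, which bundles microtubules of the spindle midzone (chr7:80294226-80294475, plus strand). Mki67 has 3 CCAAT and 2 TTTGAA, Top2a has 6 and 2, and Prc1 has 1 of each, 62 and 30 bases before the start.
Mki67: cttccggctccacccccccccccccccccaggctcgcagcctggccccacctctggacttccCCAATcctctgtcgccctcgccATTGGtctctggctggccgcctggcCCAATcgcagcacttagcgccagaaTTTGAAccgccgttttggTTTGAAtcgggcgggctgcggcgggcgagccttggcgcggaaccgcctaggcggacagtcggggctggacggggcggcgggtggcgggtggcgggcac
Top2a: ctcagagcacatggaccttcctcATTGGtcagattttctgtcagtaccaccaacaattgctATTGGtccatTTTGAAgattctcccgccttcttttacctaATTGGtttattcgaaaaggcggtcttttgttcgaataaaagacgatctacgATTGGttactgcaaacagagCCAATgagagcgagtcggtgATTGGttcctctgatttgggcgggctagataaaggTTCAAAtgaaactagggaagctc
Prc1: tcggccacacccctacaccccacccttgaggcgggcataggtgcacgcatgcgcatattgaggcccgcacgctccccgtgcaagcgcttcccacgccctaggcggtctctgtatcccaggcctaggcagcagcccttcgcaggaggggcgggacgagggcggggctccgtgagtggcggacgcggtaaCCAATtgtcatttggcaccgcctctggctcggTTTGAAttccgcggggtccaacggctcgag
Top2a stood at 86.1 and 119 CPM in the controls and at 38.9 and 37.3 CPM with spesolimab, and Prc1 at 29.6 and 41.6 CPM and at 13.1 and 12.6 CPM. From the replication list, Uhrf1 (chr17:56304063-56304312, plus strand) and Mcm5, a helicase subunit (chr8:75109259-75109508, plus strand), are shown in the same way for the E2F forms.
Uhrf1: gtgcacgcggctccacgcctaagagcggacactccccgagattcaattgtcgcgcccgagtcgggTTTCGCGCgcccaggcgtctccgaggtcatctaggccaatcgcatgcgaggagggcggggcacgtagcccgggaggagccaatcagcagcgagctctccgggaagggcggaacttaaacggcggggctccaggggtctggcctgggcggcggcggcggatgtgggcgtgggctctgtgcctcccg
Mcm5: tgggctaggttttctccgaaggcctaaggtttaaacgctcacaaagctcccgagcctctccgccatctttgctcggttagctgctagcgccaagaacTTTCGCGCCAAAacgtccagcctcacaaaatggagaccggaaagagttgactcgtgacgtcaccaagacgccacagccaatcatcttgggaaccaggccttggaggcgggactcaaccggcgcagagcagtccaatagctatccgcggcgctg
Mcm5 fell from 9.74 and 14.1 CPM to 4.83 and 3.38 CPM (adjusted p = 0.0329).

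Of 22 tested genes of the actin cytoskeleton and targets of the factors SRF and YAP, 8 fell and 0 rose. The median log2 fold change was -0.51, and for 18 both spesolimab libraries lay below both controls, against 24.6% of all tested genes. Tagln, the actin-binding protein transgelin, fell from 60.7 and 49.0 CPM to 18.8 and 23.1 CPM (log2 fold change -1.39 ± 0.141, adjusted p = 0.0108). Tpm1, a tropomyosin, fell from 480 and 444 CPM to 288 and 276 CPM (-0.71 ± 0.0870, adjusted p = 0.0163). Acta2, smooth muscle actin, fell from 129 and 109 CPM to 47.4 and 62.8 CPM (adjusted p = 0.0191), and the other falls were Flna, Myl9, Actg1, Tpm2 and Tagln2. The 8 became 1 without control replicate 1, 1 without control replicate 2, 9 without spesolimab replicate 1 and 5 without spesolimab replicate 2.

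Endothelial and mural cells hold much actin. Their markers summed to 521 and 578 CPM in the controls and 523 and 659 CPM with spesolimab. Most of each sum came from Cspg4, at 282 and 381 CPM in the controls, and Pdgfrb, at 223 and 181 CPM. The endothelial marker Pecam1 stood at 0.691 and 0.113 CPM in the controls and at 1.06 and 0.475 CPM with spesolimab. Rgs5, a pericyte gene, rose. The part of these cells in the actin result was not tested. The CArG box, the site of SRF, stood in the 250 bases before the start of 5 of 17 members with a promoter in the table (29.4%) and of 1.62% of all genes. Known targets of SRF were put into the list on purpose, so this share describes the list and not the change. Cnn2, Srf and Vcl hold the box and were not called. The 2 members called lower that hold it are shown, with the box in capitals: Myl9, a myosin light chain (chr2:156775214-156775463, plus strand), and Actg1, cytoplasmic gamma actin (chr11:120348496-120348745, minus strand).
Myl9: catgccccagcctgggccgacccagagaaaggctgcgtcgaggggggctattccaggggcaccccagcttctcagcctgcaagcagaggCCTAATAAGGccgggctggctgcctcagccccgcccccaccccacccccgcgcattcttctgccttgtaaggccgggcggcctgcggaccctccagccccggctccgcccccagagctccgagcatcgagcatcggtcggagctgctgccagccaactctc
Actg1: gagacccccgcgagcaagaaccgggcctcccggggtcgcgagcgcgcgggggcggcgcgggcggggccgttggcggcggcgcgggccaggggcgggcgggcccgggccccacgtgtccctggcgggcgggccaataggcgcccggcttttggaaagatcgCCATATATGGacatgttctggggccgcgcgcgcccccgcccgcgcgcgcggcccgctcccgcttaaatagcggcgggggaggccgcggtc
Myl9 fell from 35.5 and 25.8 CPM to 11 and 14.2 CPM (adjusted p = 0.0263), and Actg1 from 1330 and 1280 CPM to 882 and 768 CPM (adjusted p = 0.0324).

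Growth factor pathways changed at single genes. Of 26 Wnt genes tested, Wnt4 rose from 3.51 and 3.28 CPM to 9.01 and 8.13 CPM (adjusted p = 0.0187), while the non-canonical ligand Wnt5a fell from 48.1 and 47.7 CPM to 30.0 and 24.0 CPM (adjusted p = 0.0215) and the Wnt inhibitor Wif1 fell too. Of 26 TGF-beta and BMP genes, Id1, a target of BMP signals, was the 1 called, with a log2 fold change of -0.58 ± 0.0980. Of 20 FGF and EGF genes, Fgf7 fell from 229 and 183 CPM to 123 and 106 CPM (adjusted p = 0.0276) and the EGF receptor inhibitor Errfi1 rose. Of 18 genes of the insulin-like growth factor axis, the binding protein Igfbp6 rose (log2 fold change 0.44 ± 0.0715), and Igfbp7 had an adjusted p of 0.0571. When either control library was left out, 0 genes of these 4 lists were called.

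Few carbohydrate and lipid genes were called. Galnt14, which starts O-linked glycans, was the 1 of 17 GALNT genes called (adjusted p = 0.0128 in edgeR). It stood at 23.2 and 20.0 CPM in the controls and at 8.60 and 6.17 CPM with spesolimab. Galnt14 was not called when either control library was left out. Of 28 genes of glycosaminoglycans and hyaluronan, the heparan sulfate enzyme Hs6st2 and Cemip2 fell and Csgalnact2, of chondroitin sulfate synthesis, rose. Hs6st2 stood at 279 and 258 CPM in the controls and at 148 and 112 CPM with spesolimab (adjusted p = 0.0188). Of 24 cholesterol genes Msmo1 was the 1 called, higher, and 22 of the 24 log2 fold changes were above 0, with a median of 0.19. Among 22 genes of autophagy and the lysosome, Foxo3 and the protease Ctsd rose, Ctsd from 1254 and 1174 CPM to 2089 and 2111 CPM (adjusted p = 0.0172). When either control library was left out, 0 genes of the glycosaminoglycan, cholesterol and lysosome lists were called.

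In 8 further lists 0 genes were called by edgeR: immediate early genes, glycolysis and hypoxia, interferon-stimulated genes, MHC class I, the unfolded protein response, the respiratory chain, cytosolic ribosomal proteins and imprinted growth genes. At an unadjusted p under 0.05, 24 of their members were higher and 8 lower, DESeq2 called 7 higher and 1 lower, and 0 were called with limma on TPM. Their medians lay between -0.01 and 0.22 on the log2 scale. The ribosomal and respiratory genes spread the least, with every log2 fold change between -0.22 and 0.12. Of the imprinted genes, Dio3, which inactivates thyroid hormone, stood at 27.0 and 27.9 CPM in the controls and at 14.5 and 7.48 CPM with spesolimab (adjusted p = 0.0557). Magel2 went from 1.79 and 3.05 CPM to 5.83 and 16.1 CPM without passing (adjusted p = 0.0876), and 11 of the 14 tested imprinted genes had a log2 fold change above 0.

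**Figure D5:**
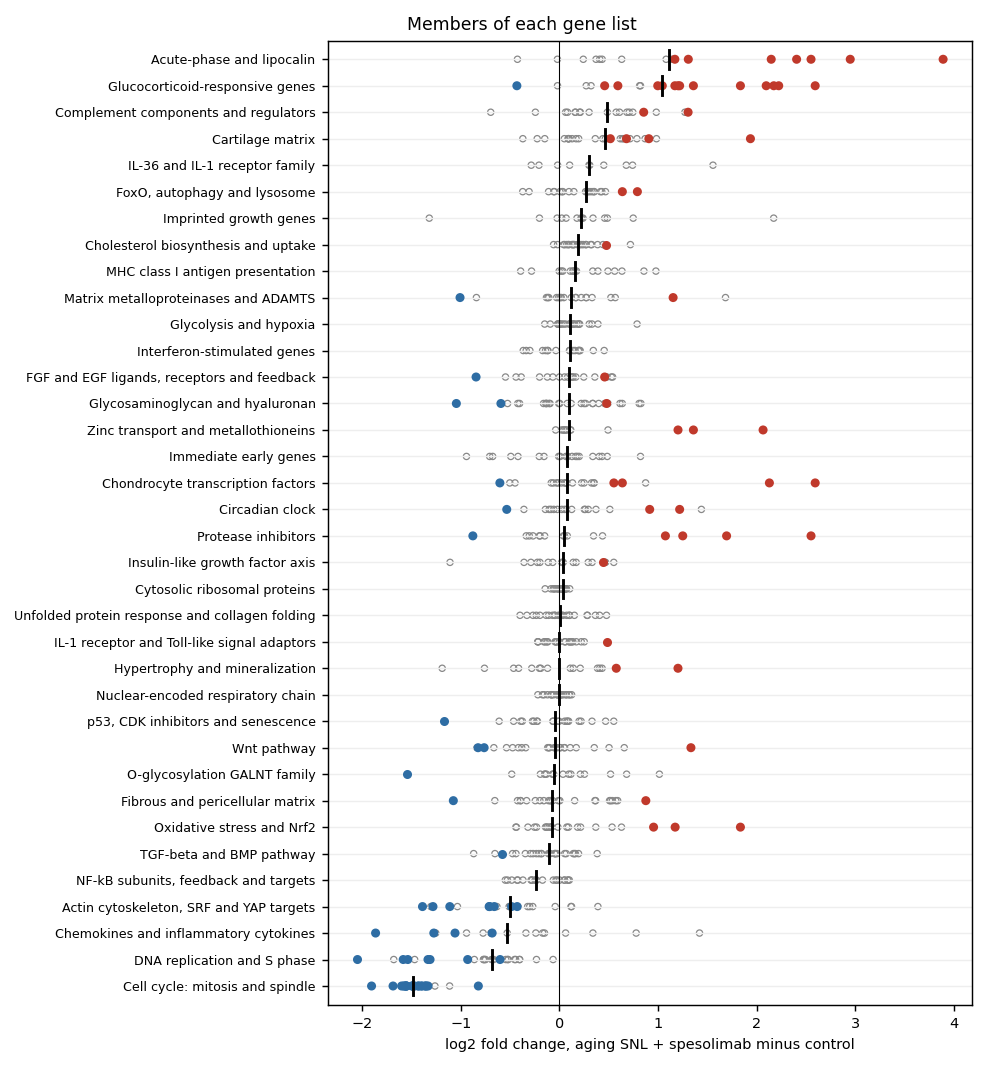
Each row is a gene list and each circle a tested member, placed by its log2 fold change, aging SNL plus spesolimab minus control; red and blue filled circles are genes called higher and lower, open circles genes not called, and the black bar is the list's median. Rows are sorted by median, from 1.11 for acute-phase genes at the top to -1.48 for mitosis at the bottom.

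The aging SNL libraries without antibody, which enter no comparison here apart from the fit of all 6 libraries tried as an alternative, are given beside these values. Any comparison of them with control would use the same control libraries. Replicate 1 of that group stood apart from the other 5 libraries, with Col2a1 at 0.741% of its counts and chondrocyte markers summing to 14701 CPM, against 81852 CPM in replicate 2. For Serpina3n the aging SNL libraries stood at 4287 and 4722 CPM, beside 3226 and 3932 CPM with spesolimab and 624 and 596 CPM in the controls. Il6 stood at 59.4 CPM in the replicate 1 library of aging SNL and at 2.49 CPM in the other, and Ccl2 at 340 and 75.2 CPM, so that replicate 1 lay above and replicate 2 below both controls. Fkbp5 stood at 75.6 and 61.5 CPM, Mki67 at 34.4 and 34.3 CPM, and Tagln at 16.9 and 16.1 CPM. Both of these libraries lay above the controls for Fkbp5 and below them for Mki67 and Tagln. Mgp stood at 277 and 1216 CPM and Aox3 at 3.57 and 32.1 CPM, where replicate 2 alone lay near the spesolimab libraries.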

How the data were processed

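Messenger RNA captured with oligo(dT) beads was sequenced from DNA nanoballs, per the labels' protocols. The authors deposited expected counts per gene, unscaled per the file headers and values, of which 12.3% were not whole, and TPM values scaled to a common total per library. The submitters' processing notes name the build GRCm39 and the tools RSEM 1.3.1, DESeq2 1.4.5 and Bowtie2 2.3.4.3, with no order or role. Annotation and strand are not given in the sources used here, and overlapping genes and near-identical family members may share reads. The 6 FPKM columns and 9 columns of group averages were not used.

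Rounded expected counts went into the quasi-likelihood test of edgeR 4.0.16 (R 4.3.3). The filter was filterByExpr (minimum count 10, minimum total 15), the scaling TMM, and the fit used the 4 libraries alone, which leaves 2 residual degrees of freedom, with Benjamini-Hochberg adjustment over the 13283 genes and a threshold of 0.05. CPM values use TMM-scaled library sizes. Errors of log2 fold changes are approximate standard errors, the size of the change divided by the root of its F statistic. Alternatives were DESeq2 1.42.0, limma 3.58.1 on log2(TPM + 1) or log2(TPM + 0.1) for genes of at least 1 TPM on average, other filters and scalings, all 6 libraries, a replicate term, and leaving out each library. On simulated counts of 13190 genes for this comparison, edgeR recovered 86 of 100 changes of 1 and 100 of 100 changes of 2 on the log2 scale, with 10 false calls. Those counts were drawn with the same dispersion for every gene and no difference between replicate numbers. The real libraries vary more unevenly, so these rates check the code and do not give the power or error rate of the comparison.

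Named genes were the 15 largest rises and 15 largest falls among called genes with a mean of at least 5 CPM, no overlap between groups and no provisional name, the lowest p-values of each list, and a fixed set around the IL-36 receptor and cartilage. Other list members were named after their values were seen, as were Cd163 and the abundant genes given in TPM. The comparison, the 36 gene lists, 8 marker lists and tests were chosen with earlier results of these data known. A total of 4 listed genes were found under older symbols. The paired libraries of each group were further apart than counting noise allows (chi-square per degree of freedom 13.6 in control and 17.7 with spesolimab), so none was counted as the same library. Promoters come from RefSeq (GRCm38.p6), which is not the build of the files, and no other coordinates are given. A result for 1 gene is not reported here.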

Additional observations from a re-analysis of the deposited data

How the results depend on the processing

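The 200 higher and 182 lower genes became 201 and 182 with RLE size factors and 191 and 180 with at least 5 CPM in 2 libraries. Without the low-count filter 38 and 14 were called, with DESeq2 317 and 241, with limma on TPM 101 and 188, and with a pseudocount of 0.1 102 and 190. With all 6 libraries in the fit 0 genes were called in either direction; 827 had an unadjusted p under 0.05 and the lowest adjusted p was 0.147. Leaving out 1 library gave 22 to 349 higher and 13 to 196 lower genes, with control replicate 2 at the low end and spesolimab replicate 1 at the high end. No called gene changed sign under any of these settings. Il1rap, at -0.02, turned to 0.02 without control replicate 1 and ranged from -0.22 to 0.16 over the fits without 1 library, the latter without spesolimab replicate 2. With RLE size factors the list counts stayed within 1.5 times the reported ones; the cause of the other moves was not tested. A replicate block gave 1130 higher and 951 lower genes, among them all 382 called without it. The difference of replicate 1 from replicate 2 correlated at 0.419 over genes between the groups, and the next principal component, with 32.6% of the variance, separated the replicate numbers, but with 2 numbers the labels and data do not establish a pairing. At these depths, low genes such as Cd163 and Orm1 rest on few counts.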
